A study of Mus musculus with 2 samples.

Results

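The regions described here are isolated LSD1 peaks: 2601 of the 5676 peaks on 11 mouse autosomes (chromosomes 1, 2, 3, 5, 6, 12, 13, 14, 16, 18 and 19), in a list of 11797 peaks over the whole genome. They were chosen by position. A peak was a member when its start lay more than 50 kb from every other start on its chromosome. The remaining 3075 peaks of the same chromosomes, which had another start within 50 kb, are called non-isolated.

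LSD1 (KDM1A) is a flavin-dependent enzyme that takes methyl groups off lysines of histone H3. It works in complexes with partners such as CoREST, and it sits at both active and silenced regulatory elements. In muscle precursors it is known for its part in switching on the myogenic programme. Sites bound by chromatin regulators often lie in groups at promoters and enhancers, and others stand alone far from any second site.

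The cells were C2C12, an established mouse myoblast line that stops dividing and fuses into myotubes once serum is lowered. The labels name no mutation, transgene or inhibitor in either group. Both groups were grown in DMEM with 25 mM glucose and 10% FBS and were taken 48 h after a change to 2% horse serum, so they share culture and treatment. They were 1 chromatin immunoprecipitation library made with a polyclonal antibody against LSD1, and 1 input library made with no antibody. Chromatin was fixed with formaldehyde plus disuccinimidyl glutarate, a crosslinker that also holds proteins to each other, so a peak may mark DNA that LSD1 reaches through a partner. A single cell line cannot stand for muscle tissue.

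Each peak has a position in the mm9 build, printed here counting from 1, and 1 score that the authors' peak caller gave it. The score's scale is not stated, so it serves only to rank and describe peaks within this list. With 1 library in each group there is no replicate error for any value. Starts, lengths and scores came from the same comparison of LSD1 with input, so every difference between isolated and non-isolated peaks is a description and carries no test. Intervals are exact 95% intervals (Clopper-Pearson for shares, Poisson for numbers per Mb, order statistics for medians). They treat peaks as independent and cover counting error only. Read depth is unknown, and an empty flank means only that no peak was listed there. Genes, exons and base sequences of mm9 were not used here, so no gene is named at any peak.

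Isolated peaks were short. Their median length was 405 bp (interval 400 to 410). The quartiles lay at 346 and 526 bp, and lengths ran from 205 to 4172 bp. Non-isolated peaks had a median of 474 bp (463 to 482), quartiles of 373.5 and 642 bp and a range of 209 to 21363 bp. The difference of medians was -69 bp, which is small against the spread of either class, and the middle ranges of both overlapped widely. Together the isolated peaks covered 1.20 Mb, against 1.88 Mb for the non-isolated ones.

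The contrast was widest among long peaks. Of the isolated peaks, 53 were 1 kb or longer (2.04%, interval 1.53 to 2.66%), and 2 were 2 kb or longer. Of the non-isolated peaks, 214 reached 1 kb (6.96%, interval 6.08 to 7.92%) and 45 reached 2 kb. At the short end, 71.0% of isolated peaks were no longer than 500 bp, the upper end of the library fragments per the labels, against 55.2% of non-isolated peaks. Read the other way, isolated peaks made up 58.5% of the 513 peaks shorter than 300 bp, 47.4% of the 1280 peaks of 400 to 500 bp and 23.2% of the 220 peaks of 1 to 2 kb. Of the 47 peaks of 2 kb or more they made up 4.26% (interval 0.520 to 14.5%).

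Isolated peaks also had lower scores. The median was 72.4 (interval 71.3 to 74.0), with quartiles of 57.7 and 104 and a top score of 1359. For non-isolated peaks the median was 83.6 (81.7 to 85.7), the quartiles were 62.3 and 133, and the top score was 1906. The lowest score, 50.01, was the same in both classes and in both classes of the other 8 autosomes, so it describes the list rather than either class. The highest score class, at or above the whole list's upper quartile of 119.41, held 505 isolated peaks (19.4%) and 903 non-isolated ones (29.4%). A score of 500 or more was reached by 5 isolated and 41 non-isolated peaks.

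**Figure D1:**
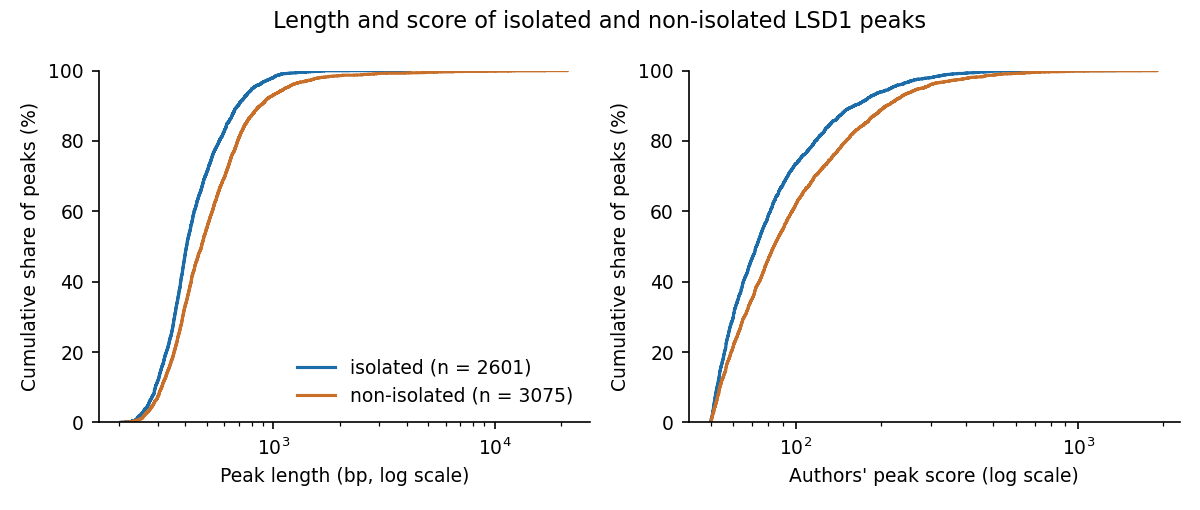
Cumulative share of peaks by length in bp (left) and by the authors' score (right), both on log axes, for 2601 isolated and 3075 non-isolated LSD1 peaks on 11 autosomes. The isolated curve lies to the left in both panels, with medians of 405 against 474 bp and 72.4 against 83.6, and the curves overlap over most of their range.

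Score and length were related within the isolated peaks (Spearman's rho 0.68, Pearson's r 0.52, n = 2601). For the non-isolated peaks rho was 0.69 and r was 0.52 (n = 3075). Both values of a peak come from the same reads and the same caller, so these coefficients describe the list alone. For that reason length was also compared within 4 score classes, divided at the quartiles of the whole list. In the lowest class the median length was 331 bp for 775 isolated peaks and 340.5 bp for 660 non-isolated peaks, a difference of -9.5 bp. The difference was -12 bp in the second class, -34.5 bp in the third and -52 bp in the highest, where the medians were 611 and 663 bp. Thus the median length of isolated peaks was lower in each of the 4 score classes, by very little among weak peaks. The share of peaks that were isolated fell along the same order, from 54.0% in the lowest class to 49.6%, 43.6% and 35.9%. These classes are wide and do not hold score equal. In the highest, 158 of 505 isolated and 345 of 903 non-isolated peaks scored 200 or more.

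By distance to the nearest start, the median score was lower in each class beyond 50 kb than in each class within it, and median length fell from class to class beyond 10 kb. Up to 1 kb the medians were 453 bp and 83.2 (n = 391), from 1 to 10 kb they were 503 bp and 86.3 (n = 1243), and from 10 to 20 kb they were 457 bp and 80.2 (n = 533). The class of 1 to 10 kb was the longest, with 11.3% at 1 kb or more. Among peaks whose nearest start lay 20 to 50 kb away, just short of isolation, the median length was 447 bp and the median score 82.0 (interval 79.3 to 85.9, n = 908). From 50 to 100 kb the medians were 423 bp and 74.9 (interval 72.6 to 77.5, n = 833), from 100 to 200 kb they were 404 bp and 71.7 (n = 837), and from 200 to 500 kb they were 398 bp and 71.7 (n = 719). The 212 peaks more than 500 kb from any other start stood lowest, at 389 bp and 67.3. The part of each class in the highest score class was 24.6%, 31.6%, 26.3% and 30.2% within 50 kb, in order of distance, and 20.9%, 19.6%, 19.7% and 11.8% (interval 7.78 to 16.9%) beyond it. Over single isolated peaks the relation to distance was weak (rho -0.11 for length and -0.06 for score, n = 2601), and these peaks share libraries and depth.

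**Figure D2:**
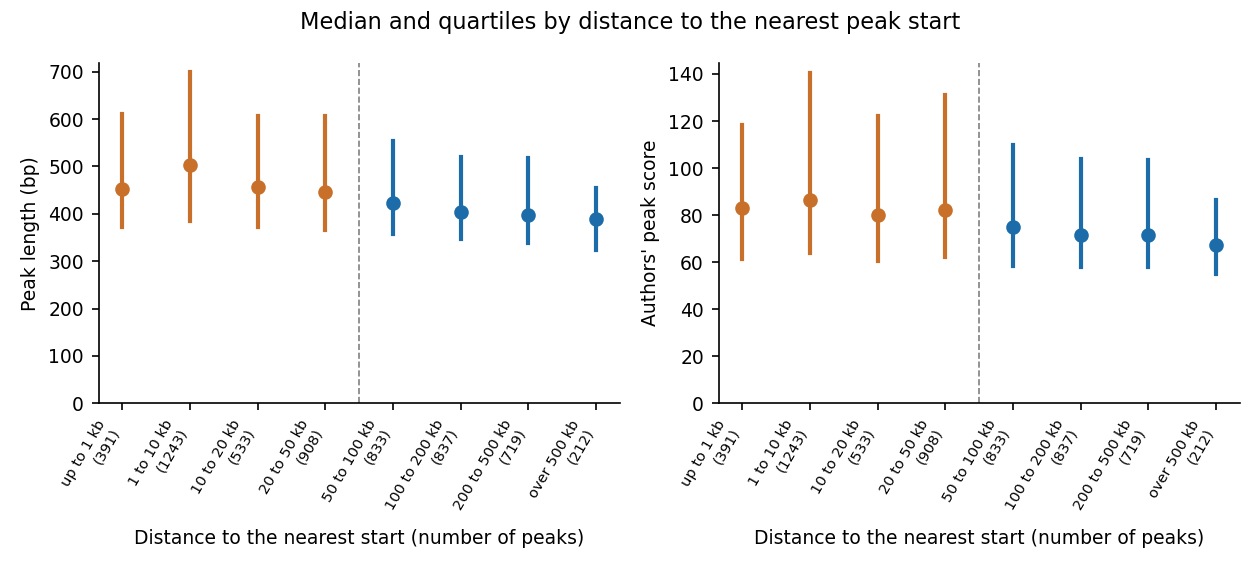
Median (point) and quartiles (bar) of peak length in bp and of the authors' score, by distance to the nearest start, with the number of peaks in each class under its name and a dashed line at 50 kb. From the class of 20 to 50 kb to the class over 500 kb the median length went from 447 to 389 bp and the median score from 82.0 to 67.3, and the score median dropped from 82.0 to 74.9 across the dashed line, with the bars of all classes overlapping.

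Lengths and scores next to the 50 kb line overlapped between its sides. Just inside lay a peak on chromosome 5 at 32057355 to 32058006 (nearest start 50.01 kb away, 652 bp, score 179.79). The next members were a pair on chromosome 2 at 51094073 to 51094481 and 51144109 to 51144617, 50.036 kb apart, 409 and 509 bp long, with scores of 126.83 and 140.26. Just outside were a peak on chromosome 2 at 109865342 to 109865616 (49.874 kb, 275 bp, score 55.46) and peaks on chromosome 16 at 50311702 to 50312216 (49.872 kb, 515 bp, 133.04) and 25200939 to 25201689 (49.586 kb, 751 bp, 158.9).

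Groups of many peaks held part of the contrast. Chains of 20 or more peaks, in which each start lies within 50 kb of the one before, contained 330 of the non-isolated peaks. Their median length was 671 bp, and 27.6% of them were 1 kb or longer. Among the other 2745 non-isolated peaks the medians were 458 bp and 82.8, and 4.48% reached 1 kb. Isolated peaks were therefore 53 bp shorter and 10.3 points lower in score at the median than the non-isolated peaks outside such chains.

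The direction was the same on each of the 11 chromosomes. The difference of median length, isolated minus non-isolated, ran from -117 bp on chromosome 14 to -35.5 bp on chromosome 13, with a median of -61 bp. The difference of median score ran from -19.8 on chromosome 14 to -4.59 on chromosome 13. Chromosome 14 stood at the low end for the isolated peaks themselves, with a median of 379 bp and 64.5 in score and 11.7% in the highest score class. Chromosome 5 stood at the high end, with 434 bp, 76.1 and 23.4%. The other 9 chromosomes had isolated medians of 390 to 424.5 bp. Long peaks did not follow the common direction everywhere, though their numbers were small. On chromosome 19, 5 of 100 isolated peaks and 1 of 102 non-isolated peaks reached 1 kb. On chromosome 18 the shares were nearly equal, 1.90% of 158 isolated and 1.78% of 169 non-isolated peaks.

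Isolated peaks per Mb differed less between chromosomes than non-isolated peaks per Mb. The 50 kb rule puts all peaks that lie close together in the non-isolated class, so this contrast is partly built in. The span of a chromosome is taken from its first start to its last, and the 11 spans add up to 1420 Mb. On average there were 1.83 isolated and 2.17 non-isolated peaks per Mb. Isolated peaks per Mb were lowest on chromosome 12 with 1.65 (interval 1.43 to 1.90), followed by chromosome 14 with 1.69, chromosome 5 with 1.69, chromosome 13 with 1.71 and chromosome 19 with 1.72. Chromosome 16 had 1.78 and chromosome 18 had 1.81. Chromosome 2 had 1.90, chromosome 6 had 1.92, chromosome 1 had 1.92 and chromosome 3 had the highest density, 2.11 (1.89 to 2.35). Neighbours in this order lay within each other's intervals, though only just for chromosomes 1 and 3. The highest density was 1.28 times the lowest, whereas for non-isolated peaks the ratio was 2.13, from 1.58 per Mb on chromosome 6 to 3.35 on chromosome 13.

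The share of peaks that were isolated was 45.8% overall (interval 44.5 to 47.1%). Chromosomes 6 and 2 had the highest shares, with 280 of 510 (54.9%) and 340 of 630 (54.0%). Chromosome 19 followed with 100 of 202 (49.5%), and then chromosome 18 with 158 of 327 (48.3%). Chromosomes 3 and 5 stood together at 330 of 705 and 252 of 539, both 46.8%. The share was 44.9% on chromosome 16 (169 of 376), 43.8% on chromosome 1 (373 of 851), 43.2% on chromosome 14 (205 of 475) and 41.3% on chromosome 12 (195 of 472). Chromosome 13 had the lowest share, 199 of 589 (33.8%, interval 30.0 to 37.8%), and 122 of its other peaks lay in chains of at least 20. Across the 11 chromosomes the isolated share fell with the density of all peaks (r -0.82, rho -0.77; r -0.77 without the 2 chromosomes farthest from the median density), and the density of isolated peaks showed little relation to it (r 0.14, rho 0.04; r 0.03 without those 2). The compared quantities contain the same peaks, so these coefficients are descriptions.

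**Figure D3:**
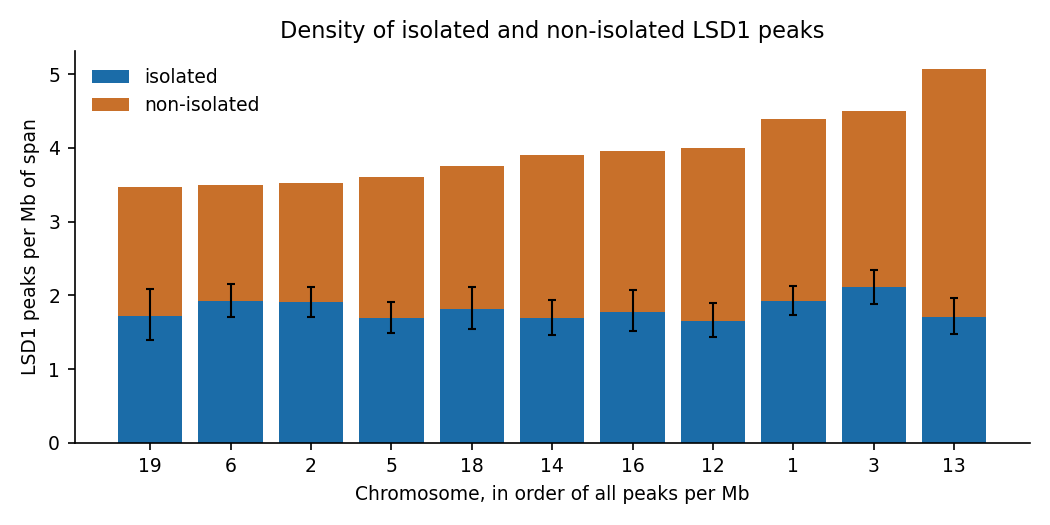
LSD1 peaks per Mb of span on 11 autosomes, ordered by the density of all peaks, with isolated peaks at the bottom of each bar, non-isolated peaks stacked above and exact Poisson 95% intervals on the isolated part. The isolated part stays between 1.65 and 2.11 per Mb while the non-isolated part runs from 1.58 to 3.35. By the rule, all peaks that lie close together are in the non-isolated part.

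Pooled over the 11 chromosomes, the isolated peaks varied less along the span than the non-isolated ones. This too is partly built in, since the rule leaves all close peaks to the non-isolated class. With each span cut into 10 equal segments, the first at the centromeric end, the segments held between 226 and 279 isolated peaks, or 1.59 to 1.96 per Mb. The last segment was lowest and the fourth was highest. Non-isolated peaks ranged from 250 to 436 per segment, with high values in the first (390) and the sixth (436). Length and score of the isolated peaks hardly moved with position: the median length was 390 to 419 bp and the median score 70.8 to 76.9 over the segments. Single chromosomes varied more, from 0.672 per Mb in the last segment to 2.84 per Mb in the third.

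**Figure D4:**
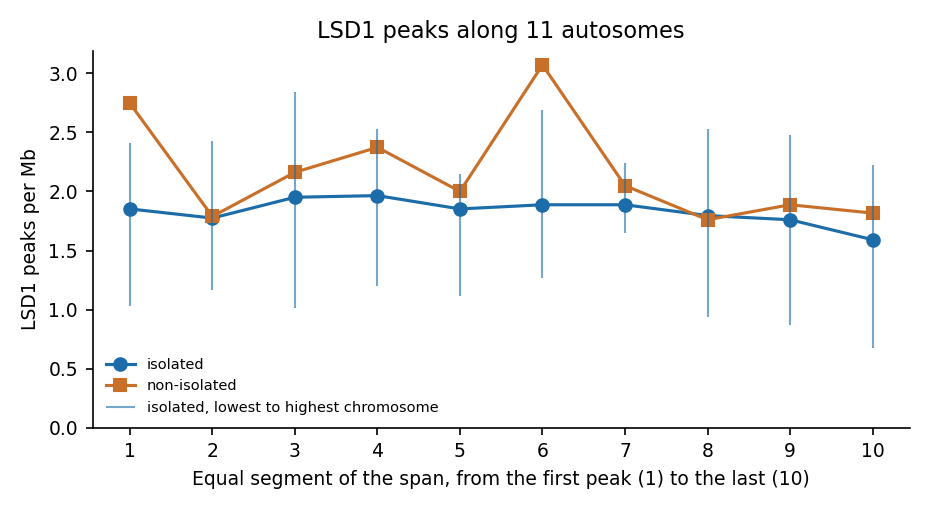
Isolated and non-isolated LSD1 peaks per Mb in 10 equal segments of the span, pooled over 11 autosomes, with vertical lines from the lowest to the highest chromosome for isolated peaks. The isolated line stays between 1.59 and 1.96 per Mb, and the non-isolated line is highest in the first and sixth segments. By the rule, all peaks that lie close together count in the non-isolated line.

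Windows of fixed size were counted as well. Of 1428 windows of 1 Mb, 1198 held isolated peaks: 415 held 1, 389 held 2, 236 held 3 and 158 held 4 or more, with a maximum of 7. The ratio of variance to mean over the windows was 0.972 for isolated peaks and 9.17 for non-isolated ones. The 50 kb rule itself keeps members apart and limits how many a window can hold, so the low variance is partly built in. In the 296 windows of 5 Mb the ratio was 1.35 for isolated peaks (mean 8.79, maximum 21 in a window) and 14.4 for non-isolated ones. Windows at the ends of a span can reach beyond it, which adds to the variance. This ratio therefore cannot decide whether isolated peaks were evenly spread at that scale. Isolated and non-isolated numbers per window had a rho of 0.07 over windows of 1 Mb and 0.22 over windows of 5 Mb. By class of 1 Mb window, windows with no non-isolated peak held 1.76 ± 1.35 isolated peaks (SD over 743 windows), and windows with 10 or more non-isolated peaks held 1.95 ± 1.31 (SD over 38 windows). In 611 windows isolated peaks were the only peaks, and these windows held 1305 of the members (50.2%). In 98 windows there were non-isolated peaks only, and 132 windows held no peak. The fullest window, on chromosome 3 at 137000001 to 138000000, held 7 isolated peaks and no other, a choice made after the values were seen.

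The flanks of isolated peaks were mostly far longer than the rule demands. The nearer of the 2 neighbouring starts lay at a median of 148 kb (quartiles 87.1 and 263 kb), and the farther one at 445 kb (quartiles 242 and 829 kb, n = 2590 peaks with a start on both sides). For non-isolated peaks the nearest start lay at a median of 8.64 kb. The rule chose members by this distance, so the classes cannot overlap in it and their contrast is built in. Of the isolated peaks, 1768 (68.0%) had no start within 100 kb, 931 (35.8%) none within 200 kb, 212 (8.15%) none within 500 kb and 34 (1.31%) none within 1 Mb. The farther flank exceeded 500 kb in 1148 peaks (44.3%) and 1 Mb in 443 (17.1%).

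The empty stretches had no preferred side. The flank before the peak was the longer one in 1285 peaks and the flank after it in 1305. A stretch between neighbouring members counts as a flank on both sides, so near-equal sides are partly built in. Most peaks sat off centre: the farther flank was a median of 2.32 times the nearer (quartiles 1.47 and 4.37), it was more than 10 times in 170 peaks (6.56%), and it was at most 2 times in 1070 (41.3%). Left and right flank were almost unrelated (rho 0.09, r 0.10, n = 2590), and neighbouring members share a flank. By chromosome the median nearer flank was shortest on chromosome 1 with 131 kb and longest on chromosome 13 with 171 kb. The median farther flank ran from 389 kb on chromosome 3 to 604 kb on chromosome 14.

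**Figure D5:**
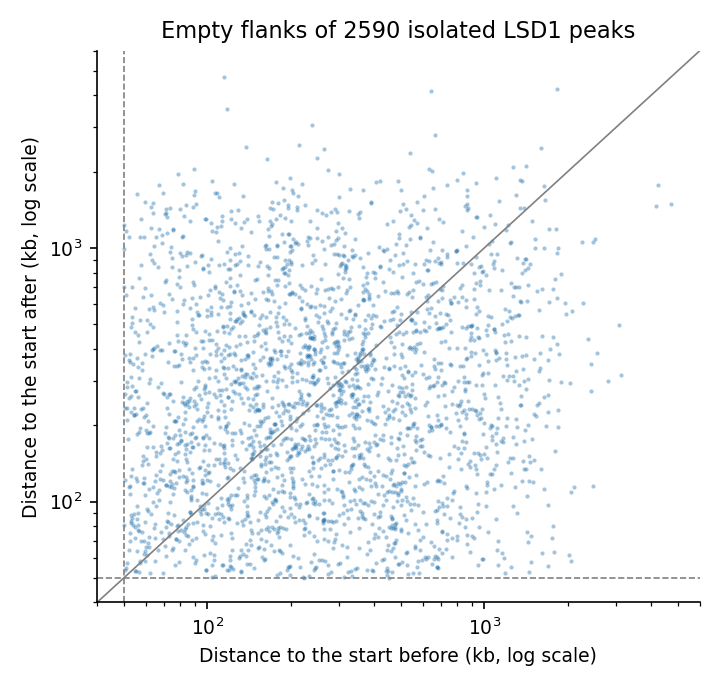
Distance from each of 2590 isolated LSD1 peaks to the start before it and the start after it, in kb on log axes, with dashed lines at 50 kb and a grey line of equal distances. The points fill the area on both sides of the line of equal distances, with 1285 below it and 1305 above it.

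Stretches without peaks were bordered mostly by members. There were 3586 distances over 50 kb between consecutive starts. Of these, 1900 (53.0%) had an isolated peak at both ends, 1391 (38.8%) at 1 end and 295 (8.23%) at neither, the last being stretches between groups. Distances over 1 Mb numbered 295 and added up to 430 Mb, 30.3% of the summed span, and 191 of them (64.7%) ran between isolated peaks. By the rule, every distance of up to 50 kb has no member at its ends, so these shares partly follow from it.

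Many isolated peaks came one after another. They formed 701 runs with no non-isolated peak in between, of a median of 3 peaks. The neighbour of a member already has a distance over 50 kb on 1 side, so runs are partly built in by the rule. Single members numbered 198. There were 315 runs of 2 to 4 peaks, 149 runs of 5 to 9, and 39 runs of 10 or more, which held 578 members (22.2%). The longest run lay on chromosome 16 from 59338004 to 76817382, with 29 isolated peaks over 17.5 Mb at a median spacing of 407 kb. Its peaks were 242 to 1058 bp long (median 380 bp) and scored 50.91 to 280.59 (median 60.6). The next, named after its values were seen, lay on chromosome 14 from 80450101 to 99134642, with 28 peaks over 18.7 Mb and medians of 370.5 bp and 62.7 in score. Members whose neighbours on both sides were isolated too (1397 peaks) had medians of 398 bp and 69.9 in score. Those with 1 isolated neighbour (998 peaks) had 416 bp and 76.2, and those with none (195 peaks) had 414 bp and 75.8.

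The 10 isolated peaks with the highest scores were 613 to 1290 bp long and lay on 7 chromosomes. The strongest lay on chromosome 3 at 130757051 to 130758042 (992 bp, score 1358.73) and ranked 13 in the whole list. Its neighbouring starts lay 103 kb before and 542 kb after it. The next score was far lower, on chromosome 3 at 10445933 to 10447069 (1137 bp, score 584.67, flanks of 58.7 and 152 kb). The third, on chromosome 1 at 129244372 to 129245552, had 1181 bp, a score of 557.91 and flanks of 692 and 149 kb. On chromosome 14, the peak at 14400424 to 14401036 was the most remote of the 10, with 528 kb before and 887 kb after it. It was also the shortest of them, 613 bp, with a score of 554.54. Chromosome 3 gave one more, at 56766120 to 56767409 (1290 bp, score 528.13).

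Scores below 500 began with chromosome 2 at 77214771 to 77215587 (817 bp, 492.87) and chromosome 16 at 85887777 to 85888537 (761 bp, 492.02). Chromosome 6 at 50727543 to 50728355 (813 bp, 486.38) had a start 57.3 kb before it and the next one 1104 kb after it. The last were chromosome 2 at 104259470 to 104260479 (1010 bp, 483.2) and chromosome 5 at 98712633 to 98713642 (1010 bp, 470.86). Among these 10 the nearer flank was below the members' median in 7. None of them was among the 10 most remote or the 5 longest.

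The longest isolated peaks did not have the highest scores. A peak on chromosome 18 at 4195106 to 4199277 was 4172 bp long, 1.91 times the next, with a score of 119.47. The second, on chromosome 6 at 91569015 to 91571202, had 2188 bp and a score of 128.23, with a flank of 59.7 kb before it and 1521 kb after it. On chromosome 5 at 28363503 to 28365201 a peak of 1699 bp scored 50.85, close to the lowest score of the list. Peaks on chromosome 13 at 108648641 to 108650331 (1691 bp, score 394.08) and chromosome 1 at 26743660 to 26745310 (1651 bp, 319.86) completed the 5.

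The 5 shortest members scored between 50.74 and 75.53. A peak of 205 bp on chromosome 1 at 141549044 to 141549248 scored 54.44. On chromosome 2 at 97522995 to 97523201 a peak of 207 bp scored 53.74, and on chromosome 6 at 61651704 to 61651916 one of 213 bp scored 56.59. Chromosome 12 held the other two, at 93608839 to 93609054 (216 bp, 50.74) and 116086633 to 116086850 (218 bp, 75.53). Only the last scored above the members' median of 72.4.

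The 10 most remote peaks lay at least 1.42 Mb from any other start. They were 247 to 614 bp long (median 366 bp), and 7 of the 10 scored below the members' median. First was the last peak of chromosome 13, at 119284342 to 119284645 (304 bp, score 51.62), 4.01 Mb after the start before it. It has 1 flank only. Chromosome 5 held 3 of the 10. A peak at 115510265 to 115510783 (519 bp, score 146.69) had 1.83 Mb before it and 4.25 Mb after it, which is the distance to another of them, at 119757726 to 119758184 (459 bp, 73.49). Further along, the peak at 130592718 to 130593133 (416 bp, 52.91) had 4.73 Mb before it, the largest distance between consecutive starts on the 11 chromosomes, and 1.49 Mb after it.

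On chromosome 12 a peak at 68160210 to 68160823 was the longest and strongest of the remote ones (614 bp, score 201.4), with 1.60 and 2.48 Mb around it. Another on that chromosome, at 110459432 to 110459750 (319 bp, 51.81), had 4.16 Mb before it. The first peak of chromosome 6, at 3314560 to 3314821 (262 bp, 59.47), was 1.70 Mb from the next. Chromosome 18 at 26926631 to 26926901 (271 bp, 56.67), chromosome 2 at 165282191 to 165282603 (413 bp, 65.08) and chromosome 1 at 118778427 to 118778673 (247 bp, 69.48) had empty sequence of 1.42 to 2.11 Mb on each side. Assembly gaps of mm9 were not used here, and their part in these distances was not tested.

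On the remaining 4 chromosomes the most remote peak was nearer to its neighbours. It lay on chromosome 14 at 97699596 to 97699899 (304 bp, score 69.43, 1.39 Mb from the nearest start) and on chromosome 3 at 88587454 to 88587850 (397 bp, 117.86, 1.19 Mb). On chromosome 16 it lay at 16560202 to 16560746 (545 bp, 241.6, 1.18 Mb), and on chromosome 19 at 31459849 to 31460260 (412 bp, 60.13, 0.906 Mb). The peak of chromosome 16 stood out from this set by its score.

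At the ends of the spans, 5 of 11 first peaks and 6 of 11 last peaks were isolated. These 11 members have a known flank on 1 side only. Their medians were 351 bp and 54.3 in score, and 1 of them, the last peak of chromosome 2 at 181567252 to 181567953 (702 bp, score 205.81), was in the highest score class.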

How the data were processed

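LSD1 ChIP and input libraries (1 each) were sequenced from differentiating C2C12 cells. Reads were aligned with BWA to mm9, per the submitters' processing notes, and peaks were called with MACS in Galaxy, per the file headers. Their versions, settings and read filters were not given in the sources used here. Each peak of the deposited list has a position and a score, set by the authors' caller on a scale that is not stated. It holds no values per sample, and depth is unknown.

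From the list, the distance of each start to the starts before and after it was computed over all peaks of its chromosome. The isolation rule was tested on simulated data and against all pairs of starts. Lengths are the number of bases from start to end, both included, in the positions as printed. Score classes were divided at the quartiles of the whole list. No test was run, because the starts that chose the members come from the same comparison as every other value. The members, classes and settings were chosen with earlier results of these data known. Peaks were named by rank: the 10 highest scores, the 5 longest, the 5 shortest, the 10 most remote, the most remote on each chromosome, 3 on each side of the 50 kb line, and the longest run. Alternatives changed the distance, the neighbours counted, the chromosomes and the comparison set. The gene, promoter and miRNA tables in hand are of GRCm38, so they were not used. Values were computed in Python 3.11.15 with pandas 2.3.3, scipy 1.17.1 and numpy 2.4.6, and plots were drawn with matplotlib 3.10.9.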

Additional observations from a re-analysis of the deposited data

How the results depend on the processing

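Isolated peaks had the lower median length and the lower median score under all 9 alternatives, and 62 of the 90 recomputed values stayed inside the main interval or, for the number of members, within 1.5 times. With 20 kb as the distance, the share was 61.8%, the median length 415 bp, the median score 74.99, the nearest start 101 kb away, and the lowest and highest densities 2.13 and 2.86 per Mb. With 100 kb these values were 31.1%, 398 bp, 70.9, 211 kb, 1.08 and 1.36 per Mb. Fewer or more starts qualify by construction. With only peaks at or above the list's median score kept, 1533 were isolated (54.3%), with a median length of 513 bp (-83 bp against the others), a median score of 114, 3.46% at 1 kb or more, the nearest start at 213 kb, and densities of 0.875 to 1.30 per Mb. Joining peaks with at most 1 kb between them gave a share of 50.8% and 4.15% at 1 kb or more, since joined peaks are longer. Over all 19 autosomes 4459 peaks were isolated (41.3%), with 412 bp, 2.87% at 1 kb or more and 140 kb. Distance from edge to edge, leaving out the widest 1% and leaving out end peaks moved no value beyond the main limits. The comparison outside chains changes only the differences from non-isolated peaks. Its other values repeat the main ones by construction and add to the 62. Its difference of median length went from -69 to -53 bp, on the limit of the main interval (-82 to -53). Intervals of differences were formed from opposite limits of the intervals of both medians. They are therefore wide and not exact, and cannot show that chains had no part. No paired analysis was possible because there is 1 library per group, and for that reason no replicate could be left out. Weak sites that went unlisted would shorten flanks, and their number is unknown at this depth.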

Other observations

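The same distance rule on the chromosomes left out above gave 1858 isolated peaks on the other 8 autosomes (4, 7, 8, 9, 10, 11, 15 and 17), with medians of 421 bp and 74.7 in score. The non-isolated peaks there had 478 bp and 81.4. Chromosome 15, with 10.4 peaks per Mb, the densest of all, had 2.35 isolated peaks per Mb, and chromosome 7, with 2.75 peaks per Mb, had 1.52. Chromosome 10, with 5.74 peaks per Mb, had 2.25, and chromosome 8, with 6.49, had 1.74. The weak relation between both densities was computed over the 11 chromosomes only and may not hold over this wider range. Chromosome 9 was the only autosome where isolated peaks had the higher median length, 418.5 against 411.5 bp. On these 8 autosomes 4.04% of isolated and 8.19% of non-isolated peaks reached 1 kb. The isolated share was the higher one on chromosomes 7 (1.77 against 1.10%), 9 (1.94 against 0%), 11 (5.61 against 5.21%) and 17 (6.22 against 5.43%). It was the lower one on chromosomes 4, 8, 10 and 15.

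On chromosome X, 265 peaks were isolated, with medians of 373 bp and 65.5 in score and the nearest start at a median of 200 kb. Of these, 12 (4.53%, exact interval 2.36 to 7.78%) were in the highest score class of the list, against 19.4% of the isolated peaks of the 11 autosomes. For non-isolated peaks the shares lay closer: 101 of 421 on X (24.0%), against 29.4% on the 11 autosomes. The copy number of X in these cells was not analysed here, and no test of these differences was run.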
